A study of Caenorhabditis elegans with 2 samples.

Results

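The proteasome subunit genes of Caenorhabditis elegans were taken as the protein-coding genes whose names begin with pas-, pbs-, rpt- or rpn-, 33 of 19973 protein-coding genes on the 6 nuclear chromosomes. They comprised 7 pas genes, 7 pbs genes, 6 rpt genes and 13 rpn genes, and none lay on chromosome X. The measurement was chromatin immunoprecipitation with sequencing (ChIP-seq) of NHR-77, a nuclear hormone receptor fused to the fluorescent protein eGFP, from whole L1 larvae, the stage that follows hatching. There was 1 group with 2 biological replicates: mixed-sex animals of strain OP353, genotype unc-119(tm4063) III; wgIs353, in which the insertion wgIs353 carries the tagged nhr-77 and every animal carries the unc-119 mutation. The labels do not say which cells make the tagged protein, so a peak is a whole-animal value. There was no second condition and no untagged group among the samples used here, so genes were compared with genes and replicate 1 with replicate 2.

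The proteasome is the protease that degrades proteins marked with ubiquitin. Its core particle is a barrel of alpha rings, which gate the entry, and beta rings, which hold the proteolytic sites. The regulatory particle that caps the barrel has a base, with a ring of AAA ATPases that unfold substrates, and a lid, which removes ubiquitin. In C. elegans the pas genes encode alpha subunits, the pbs genes beta subunits, the rpt genes the ATPases and the rpn genes the other subunits of base and lid. The transcription factor SKN-1 is known to raise the expression of these genes in worms when proteasome function is impaired.

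A gene is called bound here when the summit of a peak, its highest point, fell in a promoter window that reaches 1000 bp before the annotated 5' end and 250 bp past it. Summits came from the set to which the authors had applied a threshold of the irreproducible discovery rate, a measure of agreement between replicates (2285 peaks, called the reproducible set), and then from the relaxed lists of the pooled replicates (13500 peaks), replicate 1 (21272 peaks) and replicate 2 (24201 peaks). The signal of a peak is the authors' own value and serves here for ranks inside one list alone, with rank 1 the strongest. The lists hold no read totals, so the depth is unknown, and the exact (Clopper-Pearson) 95% intervals below cover counting error only.

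The DNA under the 8 strongest of the 10 bound members on chromosomes II to V shows where these peaks lay and which short motifs stood beneath them. Each line gives the 75 bases on either side of the summit, 151 bases in all, on the strand of the gene, read from the RefSeq WBcel235 genome with ce11 coordinates. Capitals mark matches on either strand to AGGTCA (a core site of many nuclear receptors), to ATCAT and its variant GTCAT (the core of the SKN-1 site), to the repeat GAGAGA of GAGA-type elements, to the E-box motif CACGTG, and to GATAA, the site of GATA factors.
rpn-3 (III:8447104-8447254, plus strand): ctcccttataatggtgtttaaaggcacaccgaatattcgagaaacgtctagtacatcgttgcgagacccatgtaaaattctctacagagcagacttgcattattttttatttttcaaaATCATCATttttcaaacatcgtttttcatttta
rpn-11 (II:4044465-4044615, minus strand): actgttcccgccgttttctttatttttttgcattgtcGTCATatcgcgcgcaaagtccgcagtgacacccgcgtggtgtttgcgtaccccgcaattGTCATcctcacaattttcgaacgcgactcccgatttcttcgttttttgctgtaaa
rpt-2 (V:6017722-6017872, minus strand): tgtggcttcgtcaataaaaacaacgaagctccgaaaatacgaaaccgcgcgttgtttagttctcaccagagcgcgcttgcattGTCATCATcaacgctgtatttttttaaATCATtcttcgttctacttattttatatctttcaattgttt
rpn-9 (II:11239129-11239279, minus strand): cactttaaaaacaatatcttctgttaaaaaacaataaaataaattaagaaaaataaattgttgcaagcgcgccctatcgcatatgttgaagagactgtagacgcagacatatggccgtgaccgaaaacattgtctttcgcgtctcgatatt
rpn-12 (II:11652887-11653037, plus strand): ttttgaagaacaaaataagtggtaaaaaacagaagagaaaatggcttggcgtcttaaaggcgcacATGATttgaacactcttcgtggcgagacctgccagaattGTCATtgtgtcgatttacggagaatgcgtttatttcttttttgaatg
pbs-1 (IV:1709889-1710039, minus strand): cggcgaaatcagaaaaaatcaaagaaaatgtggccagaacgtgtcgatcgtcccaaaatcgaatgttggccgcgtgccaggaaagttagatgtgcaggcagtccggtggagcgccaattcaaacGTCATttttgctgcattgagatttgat
pbs-3 (II:4955511-4955661, minus strand): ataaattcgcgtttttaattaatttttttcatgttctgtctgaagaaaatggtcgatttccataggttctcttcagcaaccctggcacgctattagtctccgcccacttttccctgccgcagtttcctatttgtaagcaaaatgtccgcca
rpn-2 (III:6198724-6198874, plus strand): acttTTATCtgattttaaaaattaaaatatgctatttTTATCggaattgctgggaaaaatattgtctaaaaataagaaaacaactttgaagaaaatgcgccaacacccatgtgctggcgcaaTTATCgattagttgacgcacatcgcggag

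Neither the nuclear receptor core nor the GAGA-type repeat nor the E-box stood in any of these 8 windows. The SKN-1 core in one of its forms stood in rpn-3, rpn-11, rpt-2, rpn-12 and pbs-1, and GATAA matches stood in rpn-2. The windows of rpn-9 and pbs-3 held none of the 6 motifs. Shares over other summits were not counted for windows of this length. Within 150 bp on either side, 55.2% of all 1278 reproducible promoter summits held a SKN-1 core and 45.9% held GATAA. In those wider windows AGGTCA stood at 7.04%, GAGAGA at 42.3% and CACGTG at 6.73%.

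Of the 33 proteasome genes, 12 had a reproducible summit in the promoter (36.4%, 95% interval 20.4 to 54.9%), against 8.60% of all protein-coding genes. Each of the 12 had a summit of its own, so no summit was counted for 2 subunits. The bound genes were pas-4, pas-5, pbs-1, pbs-3, rpt-1, rpt-2, rpn-2, rpn-3, rpn-5, rpn-9, rpn-11 and rpn-12. Their signals ranged from 78.8 to 285 with a median of 106, beside a range of 58.7 to 809 and a median of 92.4 in the whole reproducible set. Their ranks ranged from 97 to 1489 with a median of 902.5, and the median rank of all 1278 reproducible summits in a promoter was 1074.

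Every class of subunit had bound members. The alpha genes were bound in 2 of 7 cases (28.6%, 3.67 to 71.0%), the beta genes also in 2 of 7 (28.6%), the ATPase genes in 2 of 6 (33.3%, 4.33 to 77.7%) and the rpn genes in 6 of 13 (46.2%, 19.2 to 74.9%). The core particle thus had 4 of 14 genes bound (28.6%, 8.39 to 58.1%) and the regulatory particle 8 of 19 (42.1%, 20.3 to 66.5%). This order was not kept in other lists. Without replicate 1, by the 2285 strongest peaks of replicate 2, the core particle had 7 of 14 genes (23.04 to 76.96%). These were 4 of 7 pas and 3 of 7 pbs genes. The regulatory particle had 8 of 19 by that rule, and the share of all protein-coding genes was 8.19%. In the pooled list the core particle had 11 of 14 (78.6%) and the regulatory particle 14 of 19 (73.7%), against 26.5% of all genes. Within the rpn genes, with the lid taken as rpn-3, rpn-5, rpn-6.1, rpn-6.2, rpn-7, rpn-8, rpn-9, rpn-11 and rpn-12, 5 of 9 lid genes were bound (55.6%, 21.2 to 86.3%) and 1 of 4 other genes (rpn-2; 25.0%, 0.631 to 80.6%). All these intervals overlap, and the classes were not tested against each other.

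**Figure D1:**
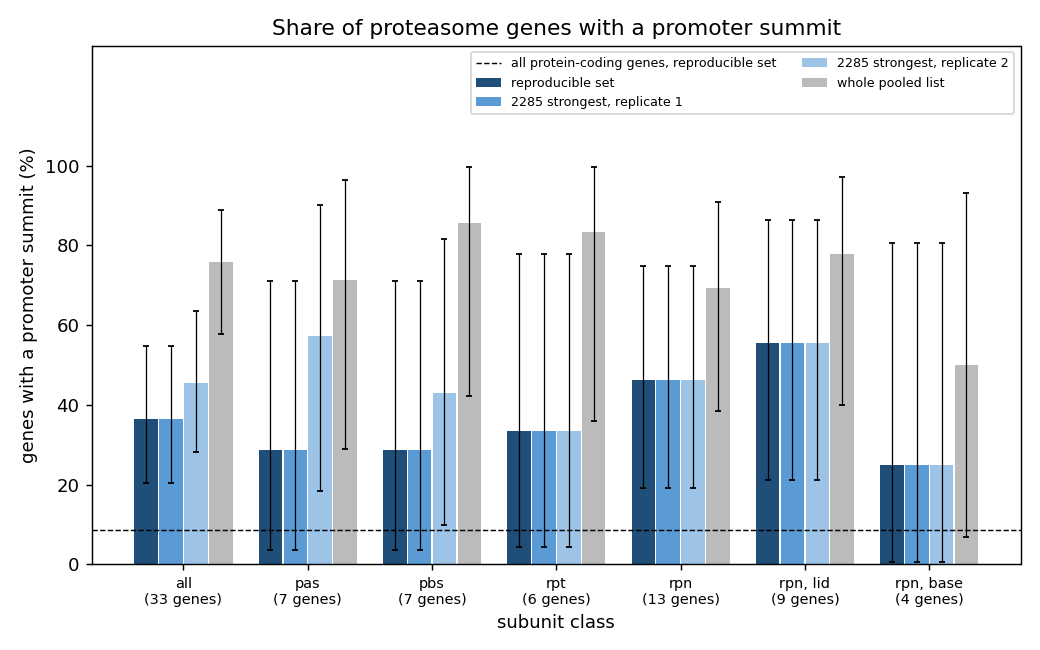
Share of genes with a promoter summit (percent, y axis) for all 33 proteasome genes and for each class (x axis). Bars stand for the reproducible set, the 2285 strongest peaks of each replicate and the whole pooled list, error bars are exact 95% intervals, and the dashed line is the share of all protein-coding genes in the reproducible set (8.60%). The dark bars run from 25.0% to 55.6%, and their intervals overlap.

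Among the alpha subunits of the core, pas-4 (WBGene00003925) had a summit at -171 bp, upstream of its 5' end, with signal 108 (rank 871). Its peak ranked 858 in replicate 1 and 1161 in replicate 2. For pas-5 (WBGene00003926) the reproducible summit lay at -993 bp, just inside the edge of the window, with signal 117 (rank 761). This peak ranked 892 in replicate 1 and 636 in replicate 2, and its summit fell in the exon of a snoRNA gene, F25H2.15, 91 bp from that gene's 5' end. A weaker pooled peak lay nearer to pas-5, at -355 bp (signal 42.2, rank 3675). Both bound alpha genes were thus within the strongest 2285 peaks of each replicate, but only the pas-4 summit was close to its gene.

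The other alpha genes had weaker peaks or none. The promoter of pas-3 held a pooled summit at -130 bp with signal 57.2 (rank 2355), just under the lowest signal of the reproducible set (58.7). It ranked 3036 in replicate 1 and 2033 in replicate 2. The pooled summit of pas-1 lay at -960 bp (rank 3382), with ranks of 6634 and 1989 in the replicates, and that of pas-6 at -231 bp (rank 7186), with ranks of 2773 and 20793. In replicate 2 the pas-6 summit was at -878 bp, far from the -223 bp of replicate 1, so the replicates did not mark the same site. The genes pas-2 and pas-7 had a summit in 1 replicate list each, at ranks 16044 (replicate 2) and 13962 (replicate 1), and none in the pooled list.

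Among the beta subunits, pbs-1 (WBGene00003947) had a summit at -219 bp with signal 102 (rank 959), ranked 817 in replicate 1 and 1202 in replicate 2. The summit of pbs-3 (WBGene00003949) lay at -159 bp with signal 91.6 (rank 1166), ranked 908 and 1672. It fell in the 3' UTR of ulp-2, the gene that ends 22 bp before pbs-3 on the same strand. Both peaks stood higher in replicate 1 than in replicate 2.

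The pbs-4 promoter was the nearest to the threshold, with a pooled summit at -200 bp and signal 57.4 (rank 2349), ranked 4526 in replicate 1 and 1766 in replicate 2. Weaker pooled summits stood at pbs-2 (-372 bp, rank 2966), pbs-7 (-52 bp, rank 4495) and pbs-6 (-360 bp, rank 8352). The pbs-6 promoter had no summit in replicate 1. For pbs-5 the sole summit was in replicate 2, at rank 23394 of 24201.

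Among the AAA ATPases of the base, rpt-2 (WBGene00004502) had a summit at -128 bp with signal 137 (rank 555), ranked 838 in replicate 1 and 328 in replicate 2. The summit fell in an exon of the ncRNA gene F29G9.10. The peak of rpt-1 (WBGene00004501) was the weakest of the bound genes, at -75 bp with signal 78.8 (rank 1489), ranked 1376 and 1422. The summits of the replicates lay 73 bp apart at rpt-1 and 57 bp apart at rpt-2, the widest gaps among the bound genes.

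Pooled summits outside the reproducible set stood far upstream of rpt-3 (-687 bp, rank 3572), rpt-5 (-537 bp, rank 3689) and rpt-6 (-780 bp, rank 11315). Replicate 1 had rpt-6 summits at -797 bp (rank 4330) and at -25 bp (rank 6734), and replicate 2 had none there. No list had a summit in the rpt-4 promoter.

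The strongest proteasome peak belonged to rpn-3 (WBGene00004460), a lid subunit, at III:8447068-8447231 with its summit at -174 bp. Its signal was 285 (rank 97), and it ranked 126 in replicate 1 and 78 in replicate 2. At 164 bp its entry in the reproducible set was also narrower than the other 11, each 380 bp wide. The replicate lists did not show this, with the peak at III:8446999-8447368 in replicate 1 and III:8446992-8447367 in replicate 2. Next came rpn-11 (WBGene00004467), the deubiquitinase of the lid, with signal 138 (rank 547), ranked 607 and 549. Its summit lay 6 bp downstream of the annotated 5' end, in the 5' UTR, and was the only one inside the gene.

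Further lid genes followed in signal. The peak of rpn-9 (WBGene00004465) lay at -285 bp with signal 128 (rank 642), ranked 842 in replicate 1 and 465 in replicate 2. That of rpn-12 (WBGene00004468) lay at -162 bp with signal 103 (rank 934), ranked 1030 and 935. The peak of rpn-5 (WBGene00004461) lay at -35 bp with signal 85.2 (rank 1318), and its ranks differed most in this direction, 1822 in replicate 1 and 1082 in replicate 2. From the base, rpn-2 (WBGene00004459), a large scaffold subunit, had a summit at -385 bp with signal 89.5 (rank 1206), ranked 1121 and 1284.

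The remaining rpn genes were below the threshold or without a peak. Pooled summits stood at rpn-8, the partner of RPN-11 in the lid (-322 bp, signal 51.9, rank 2707), at rpn-7 (-327 bp, rank 4288) and at rpn-13, a ubiquitin receptor (-428 bp, rank 4654). The rpn-13 promoter had no summit in replicate 2. The scaffold gene rpn-1 had a summit in replicate 2 alone (rank 15164), and rpn-6.1, a lid gene, in replicate 1 alone (rank 7088). Its paralogue rpn-6.2 and rpn-10, another ubiquitin receptor, had none in any list. With rpt-4 these were the 3 genes that no list marked, and the share of all genes marked by none was not counted.

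**Figure D2:**
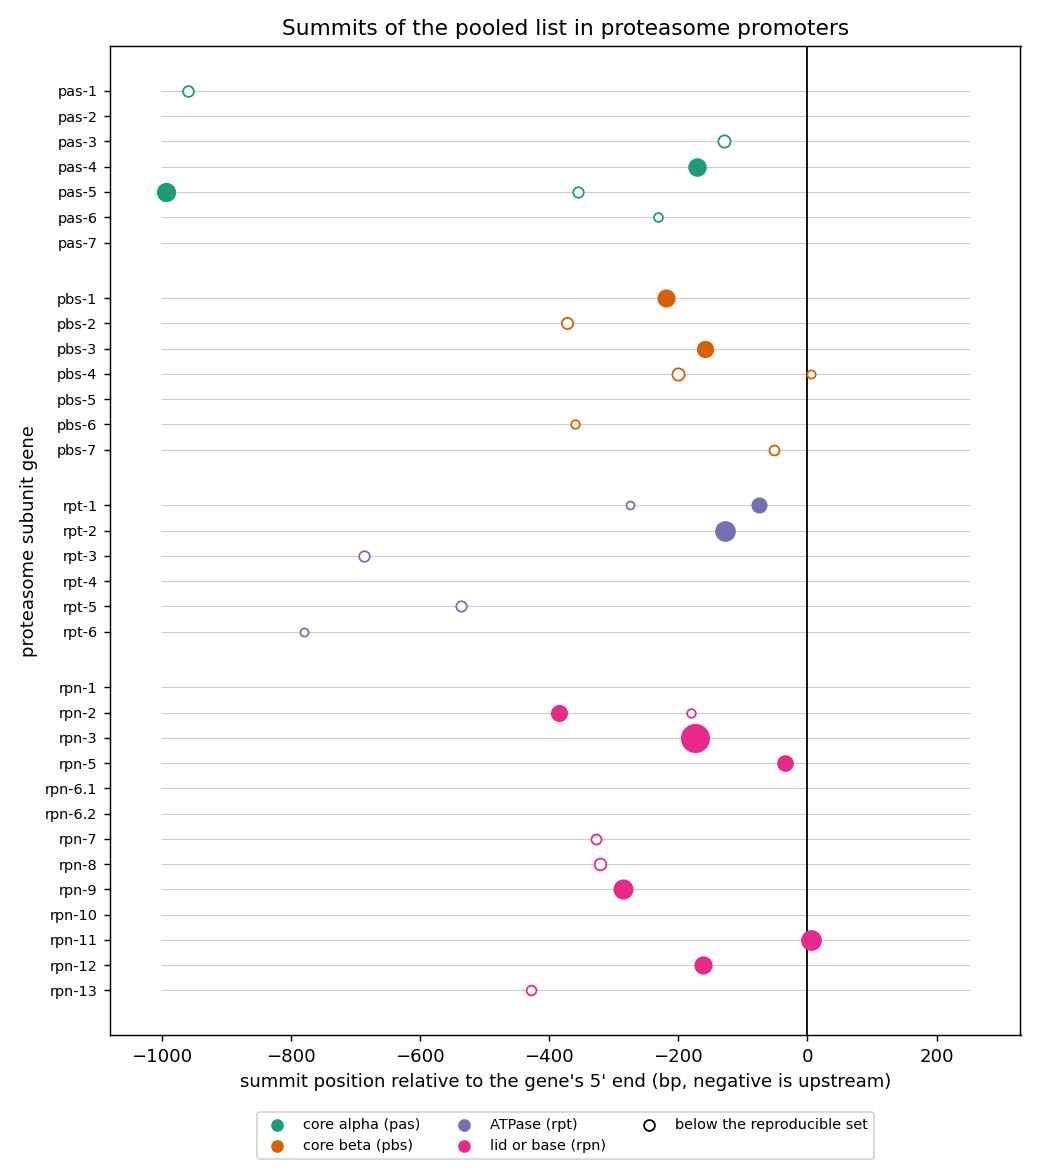
Position of every pooled-list summit relative to the 5' end of each proteasome gene (bp, x axis; 1 gene per line, grouped by class). Filled circles are in the reproducible set, open circles are below it, and circle area grows with the signal within the pooled list. Of the 12 filled circles, 10 lie within 500 bp upstream, with pas-5 at -993 bp and rpn-11 at 6 bp.

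As over all bound protein-coding genes, most of the bound proteasome summits lay close to the genes. Their median position was -166.5 bp, from -993 to 6 bp, and 10 of the 12 were within 500 bp upstream. Over all 1717 bound protein-coding genes the median was -242 bp, and 1312 (76.4%) had the strongest summit within 500 bp upstream. By annotation 7 of the 12 summits were intergenic, a split that was not counted over other promoter summits. The others were those in the snoRNA exon (pas-5), in ncRNA exons (pas-4, in C36B1.16, and rpt-2), in the ulp-2 3' UTR (pbs-3) and in the rpn-11 5' UTR. A non-coding gene began within 250 bp of the summit for 4 of the 12 (33.3%; pas-4, pas-5, rpt-2 and rpn-3), and this held for 18.7% of all reproducible promoter summits. At these sites the gene to which a peak belongs cannot be told apart.

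Most bound proteasome genes shared the summit with a neighbour read in the opposite direction. This was so for 8 of 12 (66.7%), and no other member shared its summit with a gene on either strand. Of the 1717 bound protein-coding genes, 912 (53.1%) shared a summit with another gene on either strand. The share with an opposite-strand neighbour was not counted over all bound genes. The rpn-12 summit lay between rpn-12 and rad-23, whose protein carries ubiquitinated proteins to the proteasome, at -162 and -233 bp from starts 395 bp apart. The rpn-3 summit lay at -270 bp from hsp-110, a chaperone of the Hsp110 family, that of rpt-2 at -173 bp from aps-1, a small clathrin adaptor subunit, and that of rpn-5 at -259 bp from scc-1, a cohesin subunit. The pas-4 summit was nearer to rpb-3, a subunit of RNA polymerase II (-106 bp), than to pas-4. The pbs-1, rpn-2 and rpn-9 summits were shared with K08D12.3 (-301 bp), C23G10.7 (-385 bp) and T06D8.9 (-393 bp), and the rpn-2 summit was equally far from both starts. The genes pas-5, pbs-3, rpt-1 and rpn-11 had a summit in no other protein-coding promoter.

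A start on the opposite strand within 1000 bp upstream was common among proteasome genes, whether bound or not. Of the 21 with such a neighbour, 8 were bound (38.1%), and of the 12 without one, 4 were bound (33.3%). Over all protein-coding genes these shares were 21.8% (770 of 3539) and 5.76% (947 of 16434).

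The opposite layout, a start at most 500 bp after the end of a gene on the same strand, is that of genes inside an operon, although the annotation used does not name operons. This layout was found at 3618 protein-coding genes (18.1%). Among the 33 proteasome genes it was found at 8, pas-1, pbs-3, pbs-5, rpt-3, rpn-6.2, rpn-10, rpn-11 and rpn-13. Of these, pbs-3 and rpn-11 were bound, each at its own start, and none of the first genes of these runs had a reproducible promoter summit. Of the 25 proteasome genes outside such runs 10 were bound. Over all protein-coding genes 5.91% of those inside a run and 9.19% of those outside were bound.

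All 12 bound proteasome peaks were among the 2285 strongest of both replicates, as were 1696 of the 2285 reproducible peaks (74.2%). The 2285 strongest peaks of replicate 1 covered 12 of the 33 genes (36.4%, against 8.57% of all genes), and those of replicate 2 covered 15 (45.5%, against 8.19%). The genes found by both were 12 (against 6.55%), and they were the 12 of the reproducible set. This is partly built in, since the set was derived from the replicate lists. The 3 further genes of replicate 2 were pas-1, pas-3 and pbs-4, all from the core particle. The 12 bound peaks ranked from 126 to 1822 in replicate 1 (median 875) and from 78 to 1672 in replicate 2 (median 1008.5). Of them 5 stood higher in replicate 1 and 7 in replicate 2.

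**Figure D3:**
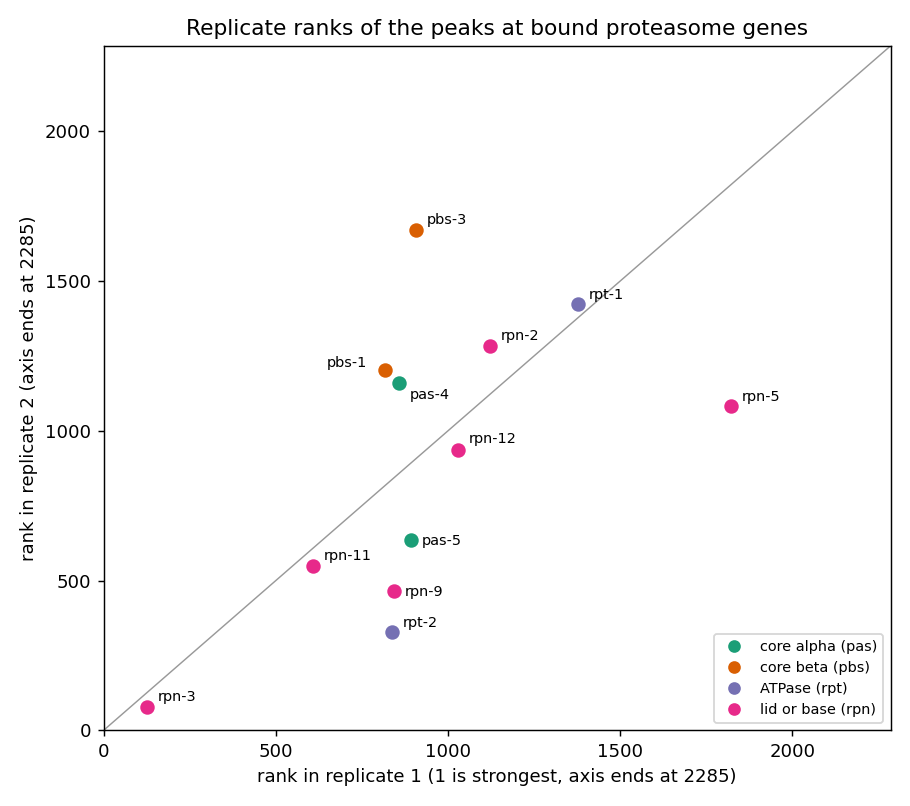
Rank of each of the 12 bound proteasome peaks in replicate 1 (x axis) and replicate 2 (y axis), where 1 is the strongest peak, both axes end at 2285, the line marks equal ranks and colours give the class. The rpn-3 peak is strongest in both (126 and 78), pbs-3 stands higher in replicate 1 (908 against 1672), and rpn-5 (1822 against 1082) and rpt-2 (838 against 328) stand higher in replicate 2.

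The order of the peaks was similar but not equal. Spearman's rho between the replicates' ranks was 0.629 over the 12 bound peaks, and over the 2279 reproducible regions with a peak in both lists it was 0.688. These are descriptions across peaks that share a library, and no p-value is given. Summit positions differed between replicates by a median of 11.5 bp at the 12 proteasome peaks (3 to 73 bp) and of 27.0 bp over the 2279 regions. The gap was 3 bp at pas-5 and rpn-9, 4 bp at rpn-3 and 5 bp at pbs-1, and it reached 46 bp at rpn-11 and 55 bp at rpn-2.

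In the full relaxed lists, which include background, most proteasome genes had some summit. The pooled list marked 25 of 33 (75.8%, against 26.5% of all genes). The full list of replicate 1 marked 26 (78.8%, against 34.3%) and that of replicate 2 also marked 26 (78.8%, against 36.9%), and 22 genes were in both (66.7%, against 22.1%). A weak peak in a relaxed list is no call, and the ranks above show how far below the reproducible set each of them lay.

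**Figure D4:**
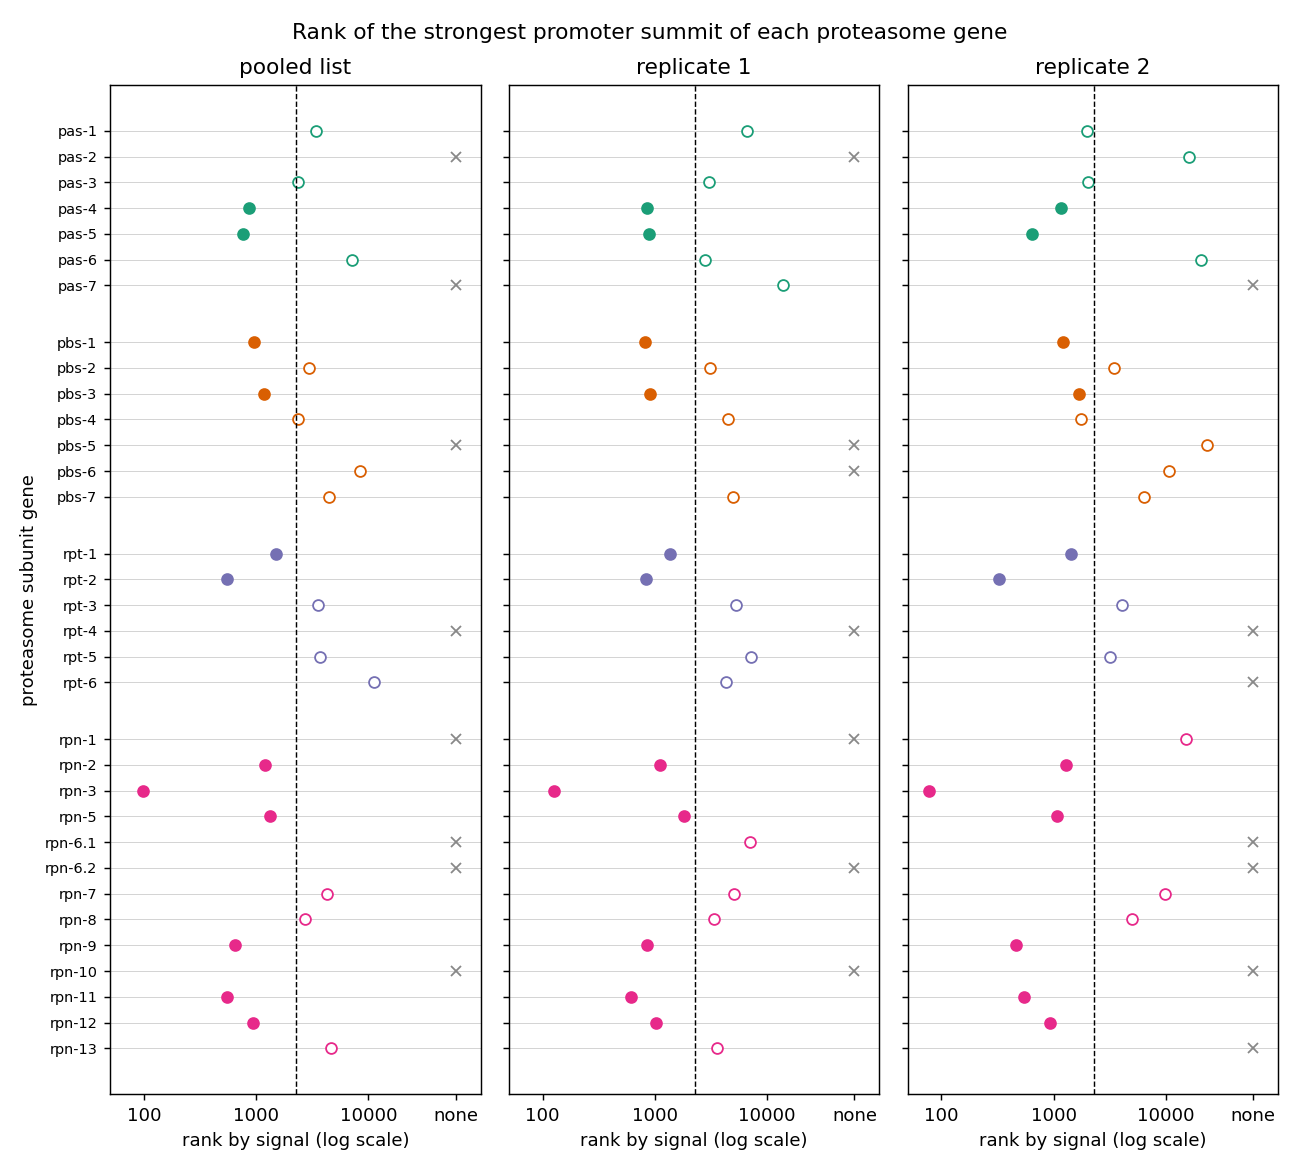
Rank (log scale, x axis) of the strongest promoter summit of each proteasome gene in the pooled list and in each replicate list. Filled circles are the 12 bound genes, open circles the others, crosses mark genes with no summit in that list, and the dashed line is rank 2285. All 12 filled circles lie left of the line in all 3 panels, and 3 open circles (pas-1, pas-3 and pbs-4) do so in replicate 2.

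The count changed little with the promoter window. With a window of 500 bp upstream to 100 bp downstream 11 of 33 genes were bound (against 6.87% of all genes), pas-5 being lost. With 2000 bp upstream to 500 bp downstream it was the same 12 (against 11.4%), so no member had a reproducible summit just outside the window. With each summit given only to the nearest start 11 remained (against 6.21%), pas-4 being lost to rpb-3. The 12 were unchanged when any base of the peak could lie in the window (against 9.27%), when the 5' end of any transcript was used (9.21%) and when the first gene of a same-strand run counted too (11.6%). Among the 1143 strongest reproducible peaks 8 genes were left (24.2%, against 4.69%).

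The short motifs were set against all promoters, taken as 250 bp before to 50 bp after the 5' end and searched on both strands. The nuclear receptor core AGGTCA stood in 2 of 33 proteasome promoters (6.06%; rpn-6.2 and rpn-11), against 8.29% of all promoters. CACGTG stood in 1 (3.03%, against 5.84%), GATAA in 17 (51.5%, against 57.7%), GAGAGA in 6 (18.2%, against 21.8%) and ATCAT in 19 (57.6%, against 55.8%). GTCAT stood in 20 (60.6%, against 39.6%). ATCAT and GTCAT overlap where they run into each other, as in the rpt-2 window above.

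Within 150 bp of the 12 bound summits the picture was set against all 1278 reproducible promoter summits. ATCAT stood at 8 (66.7%, against 36.9%), GTCAT at 7 (58.3%, against 32.2%) and one or the other at 10 (83.3%, against 55.2%). GAGAGA stood at 1, that of rpn-5 (8.33%, against 42.3%), AGGTCA also at 1, that of rpn-11 (8.33%, against 7.04%), GATAA at 6 (against 45.9%) and CACGTG at none of the 12 (against 6.73%). The windows of the 12 had a median GC content of 35.5% (28.9 to 45.2%), against 39.2% at all promoter summits, and the part of base composition in these shares was not tested. A match is no proof of a site.

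In the sequences above, rpn-11, rpt-2 and rpn-12 share the 8 bases ATTGTCAT, which is 1 of the 8 forms of the full SKN-1 site. The others are AATATCAT, AATGTCAT, ATTATCAT, TATATCAT, TATGTCAT, TTTATCAT and TTTGTCAT. This was searched after the sequences had been seen, so its counts are descriptions. Across the promoter windows of 1000 bp upstream to 250 bp downstream, ATTGTCAT stood in 8 of the 33 proteasome genes (24.2%), 5 of the 12 bound and 3 of the 21 others, against 7.62% of all protein-coding genes and 8.10% of all bound ones. Each occurrence follows with 12 bases on either side, on the strand that reads ATTGTCAT, which is in capitals (ce11 coordinates).
pas-2 (V:10770245-10770276, minus strand): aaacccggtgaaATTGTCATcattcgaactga
pbs-1 (IV:1709871-1709902, plus strand): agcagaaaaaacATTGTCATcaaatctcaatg
rpt-2 (V:6017773-6017804, minus strand): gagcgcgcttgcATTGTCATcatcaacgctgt
rpt-3 (III:6488962-6488993, minus strand): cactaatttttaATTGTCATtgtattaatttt
rpn-1 (IV:6910156-6910187, minus strand): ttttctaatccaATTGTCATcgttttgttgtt
rpn-2 (III:6198864-6198895, minus strand): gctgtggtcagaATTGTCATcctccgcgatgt
rpn-11 (II:4044503-4044534, minus strand): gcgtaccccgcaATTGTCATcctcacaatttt
rpn-12 (II:11652976-11653007, plus strand): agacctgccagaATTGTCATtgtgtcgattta

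The base after the 8 was C in 6 of these 8 occurrences and T in 2. The next base at ATTGTCAT in other promoters was not counted, so these counts describe the 8 occurrences alone. At the bound genes the middle of the 8 bases lay 8 bp from the summit for rpt-2, 21 bp for rpn-11, 30 bp for rpn-12, 77 bp for pbs-1 and 81 bp for rpn-2, in each case downstream of it on the strand of the gene. Within 150 bp of the summit ATTGTCAT thus stood at 5 of 12 bound proteasome summits (41.7%), against 25 of the 1278 promoter summits (1.96%). The 5 include rpn-11, rpt-2 and rpn-12, from whose sequences the 8 bases were picked, so this contrast is a description and no test. The full SKN-1 site in any of its 8 forms stood at the same 5, against 11.7% of promoter summits. Each of these 5 holds ATTGTCAT, so this is no separate result. In the shorter promoters the full site stood in 11 of 33 proteasome genes (33.3%, against 16.5% of all), of which 6 were bound genes. The 3 other genes with ATTGTCAT, pas-2, rpt-3 and rpn-1, had no reproducible summit.

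Genes that work with the proteasome were described by a list of 16 (dss-1, ubh-4, usp-14, psmd-9, psme-3, ubq-1, ubq-2, uba-1, rad-23, ubql-1, skn-1, ddi-1, png-1, sel-1, sel-11 and aip-1). Of these, 6 were bound (37.5%, 15.2 to 64.6%, against 8.60% of all genes), and the same 6 were found by the strongest peaks of both replicates. The highest signal, 286 (rank 96), belonged to ubql-1, a ubiquilin shuttle factor, whose summit at -536 bp was shared with pdi-3. It ranked 59 in replicate 1 and 172 in replicate 2. The summit of ubq-2, which encodes ubiquitin fused to a ribosomal protein, lay at -497 bp (signal 149, rank 466) and was shared with frg-1.

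Further bound genes were usp-14 and ubh-4, deubiquitinases that act on the proteasome. The usp-14 summit lay at -158 bp (signal 103, rank 949; ranks 667 and 1397 in the replicates) and was shared with vnut-1. That of ubh-4 lay at 4 bp (signal 81.5, rank 1410; ranks 1194 and 1828) and was shared with algn-6. The aip-1 summit, at a gene for an arsenite-inducible protein, lay at -46 bp (signal 104, rank 929) and was shared with ddx-17. The sixth was rad-23, through the summit it shares with rpn-12, so all 6 shared the summit with another gene.

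No list had a summit in the promoter of skn-1, of png-1, which encodes a glycanase that processes SKN-1A, of sel-11, a ubiquitin ligase of the endoplasmic reticulum, or of dss-1, the small lid subunit not covered by the naming rule. The polyubiquitin gene ubq-1 had a summit in replicate 1 alone (rank 9506), as had the ubiquitin-activating enzyme gene uba-1 (rank 6983). The protease gene ddi-1, which cleaves SKN-1A, had a pooled summit at rank 7369, and sel-1 at rank 4674. The promoter of nhr-77 itself held no summit in any list.

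Beside the proteasome, the vacuolar ATPase, another large complex of most cells, had 7 of 20 genes (vha names) found by the strongest peaks of both replicates (35.0%), and the cytosolic ribosomal proteins (rpl and rps names) had 61 of 78 (78.2%). The proteasome share by the same rule was 36.4%, and that of all protein-coding genes was 6.55%. These lists were not tested against each other.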

How the data were processed

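ChIP-seq against eGFP-tagged NHR-77 was done on whole L1 larvae in 2 biological replicates. Per the deposited records, a control entered the peak calling, the relaxed lists served as input for IDR, and the reproducible set derives from them. Neither aligner, caller nor IDR cut-off is stated in the records used here. The 4 deposited ce11 lists were used. The ce10 lists and the control were not analysed here. Each peak has a signal and a −log10 q in the deposited lists. Signal ranked peaks within a list, and −log10 q broke ties. How it was scaled is unknown, so it was not compared between lists.

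Genes and 5' ends came from the Ensembl annotation, release 115 (WBcel235, the ce11 assembly), and sequences from the RefSeq WBcel235 genome. All ce11 peaks lie within its chromosome lengths. Shared peaks overlap by at least 1 bp. Intervals are exact 95% binomial. Peaks cannot be traced to separate molecules, and neighbouring genes can share one, so intervals cover counting error only. No test was made, since there is 1 group and the members and lists were chosen with earlier results of these data known. Named genes are all members, genes sharing a summit with a member or starting within 1000 bp of one on the other strand, nhr-77 and the related list. Genes whose ends or non-coding exons lie at a summit were named after their values were seen. The assignment of summits was tested on simulated summits. Python 3.11.15 with scipy 1.17.1 was used.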

Additional observations from a re-analysis of the deposited data

How the results depend on the processing

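With the strongest peaks of 1 replicate in place of the reproducible set, the count of proteasome genes with a promoter summit ran from 12 to 15, that of pas genes from 2 to 4, of pbs genes from 2 to 3, of rpt genes from 2 to 2 and of rpn genes from 6 to 6. Without replicate 1 (replicate 2 alone) the gains were pas-1, pas-3 and pbs-4. With the whole relaxed pooled list the count rose to 25 genes (against 26.5% of all genes), with 5 pas, 6 pbs and 5 rpt genes. The pas count fell to 1 with the narrow window and to 1 with nearest starts only, and the pbs and rpt counts each fell to 1 with the 1143 strongest peaks, where rpn-2 and rpn-5 also dropped out. Genes found in both replicates numbered 22 with the full relaxed lists (against 22.1% of all genes). With the 1142 strongest peaks of each replicate they numbered 6 (18.2%, against 3.64% of all genes). CACGTG stood at 0% of the bound summit windows, with 12 windows too few to place a low share. The other motif shares at the 12 bound summits lay within the exact interval of the value for the 33 promoters. The genes and the windows differ between the 2 measures, so this does not show that a share is stable. Of 330 calls of single genes under the 10 alternatives, 308 stayed, 16 were gained and 6 lost, and rpn-3, rpn-9, rpn-11, rpn-12, pbs-1 and rpt-2 kept their summit in all 10. Many of these calls could not change by construction, so the counts do not measure stability. The stronger peaks, the narrow window and the nearest start could only remove summits. The pooled list, the wide window, any base of the peak, any transcript and the first gene of a run could only add them. No read depth is given, so a missing peak is not shown to be an absence of binding. No paired analysis was possible because there is 1 group.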

Other observations

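The counts of bound proteasome genes by chromosome belong in no comparison above. On chromosome II, 5 of 7 members were bound (pbs-3, rpn-5, rpn-9, rpn-11 and rpn-12), while 8.47% of all protein-coding genes there were. Chromosome I held the most members, 10, of which 2 were bound (pas-4 and pas-5), and 12.1% of its protein-coding genes were. Chromosome III had 2 of 8 bound (rpn-2 and rpn-3, against 12.1% of its protein-coding genes), V had 2 of 5 (rpt-1 and rpt-2, against 5.77%) and IV had 1 of 3 (pbs-1, against 8.29%). These counts were looked at after the data were seen and were not tested.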
